A study of Mus musculus with 9 samples.

Results

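Cell cycle genes were followed in primary mouse microglia that had been given PBS, LPS or IL-4. The genes were 39 listed by symbol, 18 of them with peak expression or function in G1 and S phase (G1/S) and 21 in G2 and mitosis (G2/M). A named row was found for 37 of them, 17 of G1/S and 20 of G2/M, among the 21212 rows of the arrays, while Ccnb1 and Pcna were not analysed here. Their symbols alone define the list. The cells came from brains of wild-type CD-1 pups at P0 to P1, pooled by litter, and were enriched on Percoll density gradients. They were cultured for 5 to 7 days with the growth factors M-CSF and GM-CSF and were kept without serum overnight. PBS (resting, M0), 100 ng/ml LPS (M1-skewed) or 20 ng/ml IL-4 (M2a-skewed) was then added for 4 h, and each condition was measured on 3 exon arrays. All 9 samples therefore shared the growth factors, the serum withdrawal and the strain.

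A cell that divides first licenses its origins of replication with the MCM helicase. It then copies its DNA under cyclin E and cyclin A with their kinases, and enters mitosis under cyclin B with Cdk1. Genes of the first phases are switched on by E2F factors when the retinoblastoma family of pocket proteins is removed. Genes of G2 and mitosis carry a promoter element called CHR, which is bound by the MuvB complex together with pocket proteins at rest and with B-Myb and FoxM1 in dividing cells. Microglia are macrophages of the brain that divide in culture when M-CSF or GM-CSF is present, and LPS is known to slow the division of macrophages.

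Promoters of some of these genes are shown because the letters of both regulators' elements can be looked for in them. RefSeq windows of mouse GRCm38.p6 were matched by symbol for 29 of the 37 genes, 32 windows in all, each with 250 bases before and 50 after the start. Ccna2, Ccne2, Aurkb, Mcm4, Kif20a, Tpx2, Gins1 and Foxm1 were the other 8 genes. Both strands were searched for the E2F letters TTTCCCGC, TTTCGCGC, TTTGCCGC and TTTGGCGC, for CHR (TTTGAA) and for CCAAT, and overlaps between motifs were allowed. The E2F letters stood in 6 of 16 G1/S windows (37.5%), 1 of 16 G2/M windows (6.25%) and 2.265% of all 32851 windows. Among G1/S genes they were absent from the windows of Ccne1, Cdc45, E2f1, Mcm2, Mybl2, Rrm1, Rrm2 and Tyms. CHR stood in 2 of 16 G1/S windows (12.5%), 12 of 16 G2/M windows (75.0%) and 17.89% of all windows. CCAAT was found in 68.75%, 87.5% and 37.41% of them. These matches describe letters and not binding.

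The licensing genes Mcm6 and Mcm7 are shown first, as genes with E2F letters. Mcm7 has another window, from a start further along the gene, with no E2F letters, which is not shown. The stretches run from 120 bases before to 40 bases after the start, 5′ to 3′ along the gene, and capitals mark the motifs on either strand, with overlapping motifs run together.
Mcm6 (chr1:128359666-128359825, minus strand): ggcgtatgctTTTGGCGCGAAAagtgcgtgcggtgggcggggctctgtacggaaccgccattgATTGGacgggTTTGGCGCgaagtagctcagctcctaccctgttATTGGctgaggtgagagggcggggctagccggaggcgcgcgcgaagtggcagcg
Mcm7 (chr5:138171844-138172003, minus strand): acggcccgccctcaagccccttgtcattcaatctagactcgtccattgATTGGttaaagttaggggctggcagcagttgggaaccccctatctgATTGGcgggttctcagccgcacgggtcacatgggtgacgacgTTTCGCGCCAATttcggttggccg

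Cdc20, Cdk1 and Kif11 are shown as mitotic genes that have CHR and CCAAT in this stretch and whose falls with LPS were kept under every setting tried. Cdk1 also has E2F letters, which lie before the stretch shown.
Cdc20 (chr4:118437304-118437463, minus strand): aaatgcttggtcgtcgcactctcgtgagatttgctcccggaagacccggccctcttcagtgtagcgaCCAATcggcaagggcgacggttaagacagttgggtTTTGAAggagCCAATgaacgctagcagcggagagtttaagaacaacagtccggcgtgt
Cdk1 (chr10:69352873-69353032, minus strand): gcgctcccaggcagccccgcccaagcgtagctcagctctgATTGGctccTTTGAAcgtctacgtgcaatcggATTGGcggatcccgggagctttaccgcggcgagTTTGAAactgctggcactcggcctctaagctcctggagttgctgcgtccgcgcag
Kif11 (chr19:37376262-37376421, plus strand): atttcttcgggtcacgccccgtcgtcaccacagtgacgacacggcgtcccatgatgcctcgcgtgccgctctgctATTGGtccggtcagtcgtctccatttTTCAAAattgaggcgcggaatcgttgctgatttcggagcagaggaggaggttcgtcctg

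Cenpe is shown as the member that rose with LPS, and Mki67 because it was higher with LPS in all same-numbered pairs without passing. Mki67 has CHR at 2 places, and its CCAAT letters lie before the stretch shown. No CHR letters stood in the window of Cenpe. They were also absent from the windows of Bub1, Birc5 and Nusap1, whose differences with LPS were −0.80, −0.38 and −0.52 without passing. Of the G2/M genes with CHR letters, Aurka, Bub1b, Cdc20, Cdk1, Cenpf, Kif11 and Top2a fell. Ccnb2 (−0.55), Plk1 (−0.43), Prc1 (−0.09) and Mki67 also have CHR letters and did not pass. A relation between these letters and the differences was not tested.
Mki67 (chr7:135716340-135716499, minus strand): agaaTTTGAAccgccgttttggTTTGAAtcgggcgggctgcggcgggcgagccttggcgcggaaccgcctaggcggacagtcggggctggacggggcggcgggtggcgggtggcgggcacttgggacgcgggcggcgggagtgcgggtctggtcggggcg
Cenpe (chr3:135212443-135212602, plus strand): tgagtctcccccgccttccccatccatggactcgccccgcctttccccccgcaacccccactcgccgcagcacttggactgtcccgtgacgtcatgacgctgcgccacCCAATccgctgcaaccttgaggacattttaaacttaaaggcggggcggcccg

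Replicate 3 of PBS and replicate 3 of LPS stood apart from replicates 1 and 2 of their own conditions, and this bears on most values below. On both arrays 37 of 39 measured motile cilia genes lay above replicates 1 and 2, by a median of 1.51 on the log2 scale in each condition. Foxj1, the regulator of motile cilia, had log2 values of 9.66, 9.69 and 10.72 in PBS, 8.36, 8.35 and 9.86 in LPS and 10.27, 10.51 and 10.36 in IL-4, so that for this gene the IL-4 arrays lay between LPS replicate 3 and PBS replicate 3. Oligodendrocyte lineage markers (median over 13 genes 0.43 in PBS and 0.79 in LPS) and astrocyte markers (0.52 and 0.53 over 12 genes) were higher there as well, and neuron markers (−0.05 and −0.06 over 13 genes) were not. Microglia and macrophage markers were present on every array, with Csf1r between 10.77 and 11.90. In PBS 9 of 11 genes were higher in replicate 3 than in both others and 2 were lower than both, with a median shift of 0.36. In LPS they were split, with 6 higher and 5 lower and a median shift of 0.10. The summed log2 level of the 39 cilia genes ranged from 262.4 to 323.0 in PBS, from 252.3 to 311.6 in LPS and from 299.4 to 308.6 in IL-4. The labels do not state that replicates are separate cultures, so p-values here reflect array-to-array spread that may be technical. Array means cannot tell fewer dividing cells from less RNA per cell, nor microglia from other cells of the culture.

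**Figure D1:**
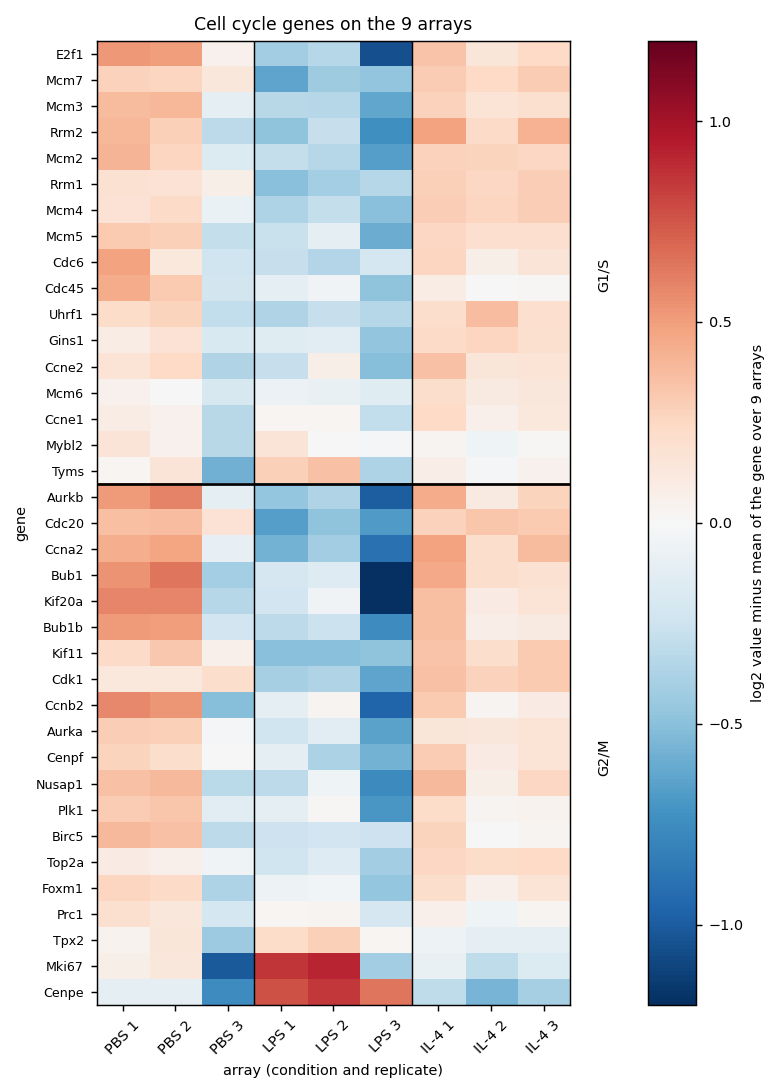
Deposited log2 values of the 37 cell cycle genes on the 9 arrays (columns), each as the difference from the gene's mean over all arrays, with G1/S genes above the line and G2/M genes below it and genes ordered by LPS minus PBS within each. Most genes are lower (blue) on the LPS arrays, and PBS replicate 3 and LPS replicate 3 are lower than replicates 1 and 2 of their condition for 36 and 31 of the 37 genes.

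After 4 h of LPS, genes of both phases fell, none of them by as much as 2-fold. Of the 37 genes, 16 were lower than in PBS with an adjusted p under 0.05 (limma), 7 of G1/S and 9 of G2/M, where 22.4% of all rows were lower. Cenpe alone was higher, where 15.4% of all rows were. These were 7 of 17 measured G1/S genes and 9 of 20 measured G2/M genes. The median log2 difference was −0.40 for G1/S genes and −0.52 for G2/M genes, beside 0.01 over all rows. All LPS arrays lay below all PBS arrays for 15 of the 37 genes (25.4% of all rows) and above them for 1, Cenpe (20.4% of all rows). Between these conditions none of 39 motile cilia genes passed in this fit (median −0.15), although some did in settings given below. Of 11 microglia markers 6 fell and 3 rose. The part of these differences in the members' falls was not tested.

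Which members passed depended on PBS replicate 3. Without it 28 members were lower and 1 was higher (22.7% and 14.1% of all rows), and without replicate 3 of both LPS and PBS 28 were lower and 4 higher (28.3% and 19.1% of all rows). The replicate numbers were taken to pair LPS with PBS from the correlation of the arrays, which sets replicate 3 apart but separates replicates 1 and 2 little. With the number as a block over 9 arrays, 23 members were lower and 1 higher (25.1% and 17.2% of all rows), and over only the 6 LPS and PBS arrays 27 were lower and 4 higher (28.8% and 18.6% of all rows). The block over 9 arrays gives the IL-4 arrays the same replicate effects, although IL-4 and PBS replicates did not vary together throughout. Adjusted p given below simply with the block come from these 9 arrays and carry that limit. The motile cilia genes also depended on the setting. Leaving out replicate 3 of both LPS and PBS made 15 of the 39 lower with LPS and 1 higher (median −0.14). The block over only the 6 LPS and PBS arrays made 16 of them lower and 0 higher. Within pairs of the same number, 27 of 37 genes were lower with LPS in all 3 pairs (37.0% of all rows) and 4 were higher in all 3 (31.9% of all rows), namely Cenpe, Mki67, Tpx2 and Tyms. Subtracting each array's median moved the median of all rows from 0.01 to 0.12 and the share of higher calls over all rows from 40.8% to 63.9%. Relative to the median of all rows, the G1/S and G2/M medians were −0.41 and −0.53 with and without this step, and −0.30 and −0.41 after quantile normalization. No call of a member changed sign in these settings. Those of Top2a, Bub1b, Aurka and Rrm2 were lost with array medians subtracted and those of Bub1b, Aurka and Rrm2 after quantile normalization.

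**Figure D2:**
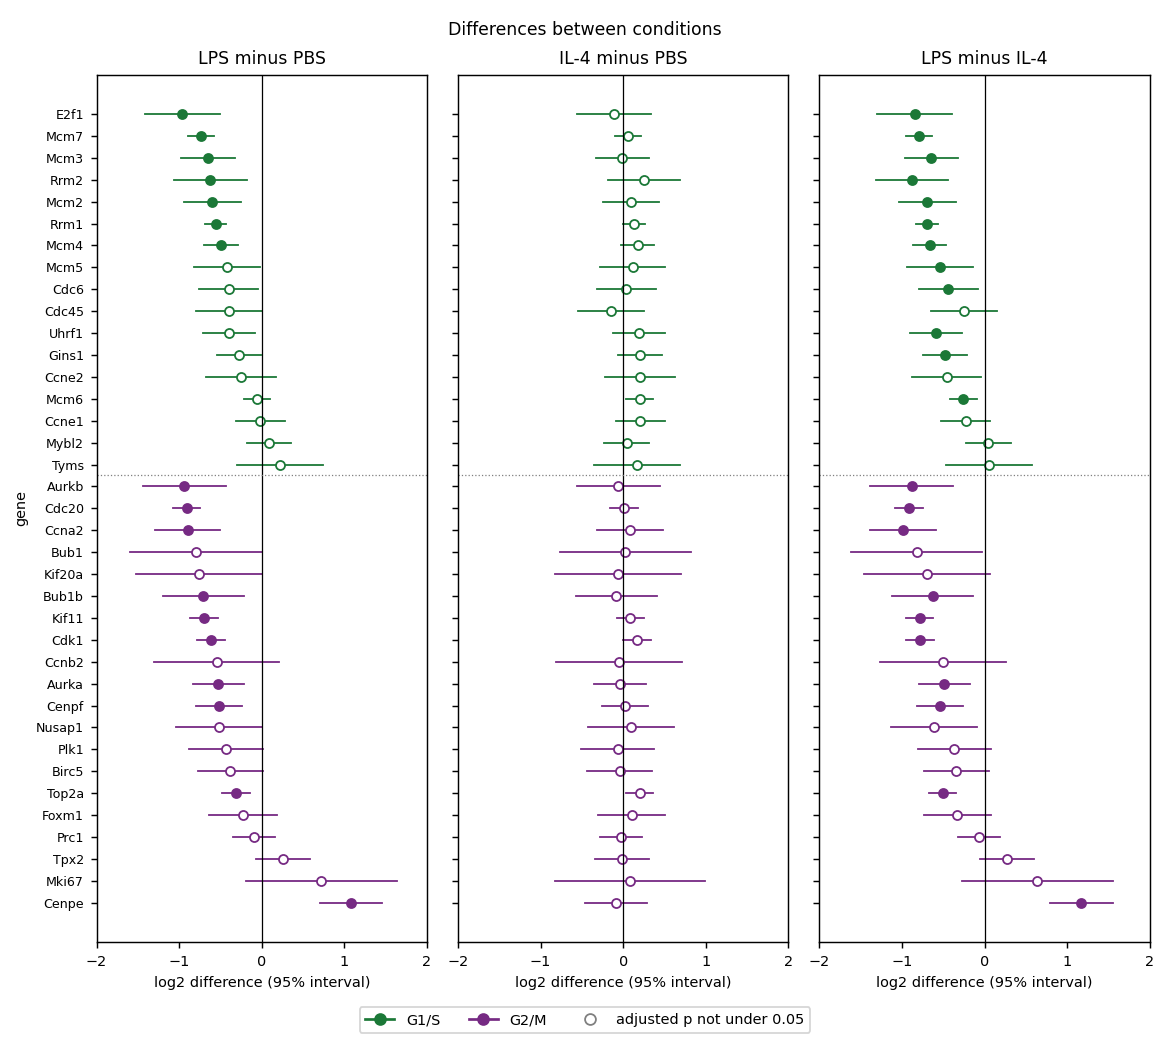
Log2 differences of the 37 genes between conditions with their 95% intervals (limma, 9 arrays), G1/S genes in green above the dotted line and G2/M genes in purple below it. Filled points passed an adjusted p under 0.05. With LPS 16 genes lie below PBS and Cenpe above it, with IL-4 no gene is filled, and against IL-4 21 genes are lower with LPS.

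Among the transcription factors that drive the cycle, E2f1 fell, while Mybl2 and Foxm1 did not pass. E2f1, which switches on S phase genes, had log2 values of 8.67, 8.65 and 8.20 in PBS and of 7.73, 7.81 and 7.09 in LPS. Every LPS array was below every PBS array. It fell to 51.4% of PBS, a log2 difference of −0.96 ± 0.20 (SE, adjusted p = 0.00472), and the same-numbered pairs gave −0.94, −0.85 and −1.10. Mybl2, which encodes B-Myb, had values of 7.56, 7.46 and 7.07 in PBS and 7.56, 7.41 and 7.39 in LPS, a difference of 0.09 (95% interval −0.18 to 0.36). Foxm1 differed by −0.23 (−0.63 to 0.18). Its 3 pairs were all lower with LPS (−0.32, −0.26 and −0.10), although the ranges of the arrays overlapped.

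The counts for other cell cycle genes stand beside 22.4% of all rows lower and 15.4% higher with LPS. Of 9 other E2F family and partner genes 2 fell, a share like that of all rows, and 3 rose. Tfdp2, a dimer partner of E2F, fell by 1.35 and the repressor E2f6 by 0.66, while the repressor E2f4 rose by 0.30 (adjusted p = 3.68e-06, 1.44e-04 and 0.00937). E2f3 (0.26) and E2f5 (0.25) were the others that rose. Of 5 genes of the MuvB core, Lin52 (−0.83), Lin37 (−0.38) and Rbbp4 (−0.31) fell and Lin9 rose by 0.64. Rbl1, the pocket protein p107, was at 8.54, 8.54 and 8.19 in PBS and at 10.03, 10.02 and 9.67 in LPS. This rise of 1.48 stood beside a fall of Rbl2, the pocket protein p130 that predominates in resting cells, by 0.91.

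Of the cyclins and their kinases, cyclin A2 and Cdk1 fell, and cyclin B2 and both E cyclins did not pass. Ccna2, cyclin A2, had log2 values of 9.64, 9.68 and 9.11 in PBS and 8.64, 8.79 and 8.31 in LPS. The ranges did not overlap, and it fell by 0.90 ± 0.17 to 53.7% of PBS (SE, adjusted p = 0.00351). Cdk1, the kinase of mitotic entry, was at 10.14, 10.14 and 10.22 in PBS and at 9.62, 9.65 and 9.38 in LPS. It was the one member that was not lower in PBS replicate 3, and it fell by 0.62 ± 0.07 (adjusted p = 2.40e-04). Ccnb2, cyclin B2, had values of 10.14, 10.10 and 9.06 in PBS and 9.46, 9.60 and 8.60 in LPS. Its arrays overlapped because replicate 3 was low in both conditions, and the difference of −0.55 (−1.31 to 0.21) did not pass (adjusted p = 0.237), although the pairs gave −0.69, −0.50 and −0.46. The difference was −0.02 (−0.32 to 0.28) for Ccne1 and −0.25 (−0.68 to 0.17) for Ccne2, which encode cyclins E1 and E2.

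Of 9 genes for D cyclins, their kinases and pocket proteins, 4 fell and 3 rose. Besides the pocket proteins Rbl1 and Rbl2, Cdk2, the partner of cyclins E and A, fell by 0.81 (adjusted p = 0.00119), as did Cdk4 (−0.53) and Rb1 (−0.43), while Cdk6 (0.47) and Ccnd2 (0.41) rose. Ccnd1, a cyclin induced by growth factors, differed by −0.26 without passing. Of 7 inhibitors of these kinases 2 fell and 2 rose, beside the same 22.4% and 15.4% of all rows. Cdkn1a, the p21 inhibitor, rose by 0.64 from values of 11.70, 11.73 and 11.22 to 12.23, 12.26 and 12.07, and Cdkn2b, the p15 inhibitor, rose by 0.67. Cdkn2c, the p18 inhibitor, fell by 0.74 and Cdkn1b, the p27 inhibitor, by 0.61.

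The genes that license and start replication fell in part. Of the 6 genes of the MCM helicase, Mcm2, Mcm3, Mcm4 and Mcm7 fell and Mcm5 and Mcm6 did not pass. Mcm7 was at 8.94, 8.92 and 8.79 in PBS and at 8.02, 8.24 and 8.19 in LPS, well apart, and fell by 0.74 ± 0.07 (SE, adjusted p = 5.52e-05). Mcm6 was at 8.66, 8.61 and 8.42 in PBS and at 8.54, 8.52 and 8.46 in LPS. Its arrays overlapped, and its difference of −0.06 (−0.22 to 0.10) lay outside the intervals of Mcm2 (−0.94 to −0.26), Mcm3 (−0.98 to −0.33), Mcm4 (−0.69 to −0.29) and Mcm7 (−0.89 to −0.58). No test between these genes was made. Mcm5 differed by −0.42 (adjusted p = 0.0893) and passed with the block (adjusted p = 0.0274).

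The loading and firing factors had differences of −0.40 (Cdc6), −0.39 (Cdc45) and −0.28 (Gins1) that did not pass. Cdc45 and Gins1, parts of the active helicase, passed with the block (adjusted p = 0.0339 and 0.0200). Cdc6, which loads the helicase, was at 6.77, 6.42 and 6.05 in PBS and at 6.01, 5.93 and 6.08 in LPS, so only replicate 3 was not lower with LPS.
Both subunits of ribonucleotide reductase, which makes the DNA precursors, fell. Rrm1 was at 10.16, 10.15 and 10.05 in PBS and at 9.48, 9.57 and 9.64 in LPS and fell by 0.56 ± 0.06 (SE, adjusted p = 9.46e-05). Rrm2, the subunit made in S phase, fell by 0.62 ± 0.19 (adjusted p = 0.0318), but this call was lost without either of PBS replicates 1 and 2, LPS replicates 1 and 3 or IL-4 replicate 3 (adjusted p from 0.0515 to 0.103). Tyms, thymidylate synthase, had values of 8.35, 8.48 and 7.75 in PBS and 8.62, 8.68 and 7.96 in LPS. Its difference of 0.22 (−0.30 to 0.74) did not pass, while all 3 pairs were higher with LPS (0.26, 0.20 and 0.21). Uhrf1, which keeps DNA methylation at the replication fork, differed by −0.39 (adjusted p = 0.0529, and 0.0289 with the block).

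Of 36 genes for origin licensing, polymerases and precursors, 17 fell and 1 rose (22.4% and 15.4% of all rows), with a median of −0.38. Orc5, of the origin recognition complex, fell by 0.94 and Rpa1, which covers single-stranded DNA, by 0.84 (adjusted p = 3.13e-06 and 2.96e-06). Rfc3, a subunit of the clamp loader, was the one that rose, by 0.88.

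**Figure D3:**
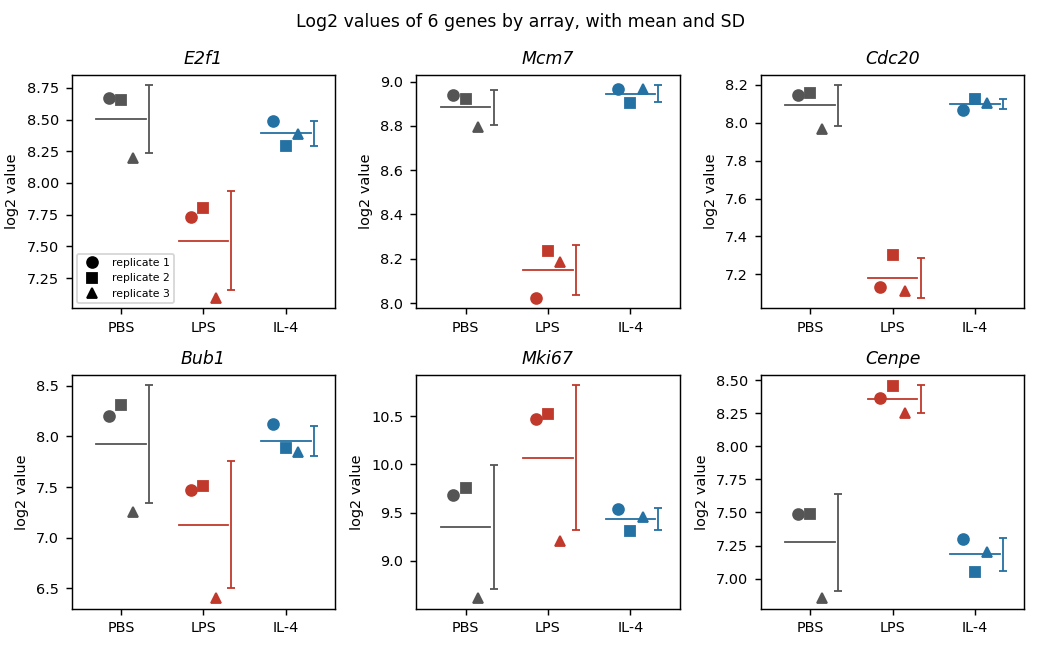
Deposited log2 values of 6 genes on each array, with the replicate as marker shape, the condition mean as a line and the SD as a bar, each panel with its own scale. Mcm7 and Cdc20 are lower on all LPS arrays with little spread, replicate 3 sets the spread of Bub1 and Mki67 in PBS and LPS, and Cenpe is higher on all LPS arrays.

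Genes of chromosome segregation included clear falls and the 1 rise. Cdc20, the activator of the anaphase-promoting complex, was at 8.15, 8.16 and 7.97 in PBS and at 7.13, 7.30 and 7.11 in LPS. It fell to 53.2% of PBS, by 0.91 ± 0.07 (SE, adjusted p = 2.12e-05, the lowest among the members). Kif11, the motor that separates the spindle poles, was at 8.39, 8.49 and 8.22 in PBS and at 7.66, 7.65 and 7.68 in LPS and fell by 0.70 ± 0.07 (adjusted p = 9.14e-05). Both genes were well apart between the conditions, replicate 3 included.

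Of the mitotic kinases, Aurkb, the kinase of the chromosomal passenger complex, fell by 0.94 ± 0.22 (adjusted p = 0.00927), from 9.25, 9.34 and 8.63 to 8.28, 8.38 and 7.75. Aurka, the kinase of the spindle poles, fell by 0.53 (adjusted p = 0.0148), but not with PBS replicate 1 (adjusted p = 0.0529) or PBS replicate 2 (adjusted p = 0.0539) left out. Bub1b, the checkpoint protein BubR1, fell by 0.71 (adjusted p = 0.0303), and this call was lost without PBS replicate 1 or 2 or LPS replicate 1 or 3 (adjusted p from 0.0535 to 0.102). Bub1, the checkpoint kinase, was at 8.21, 8.31 and 7.26 in PBS and at 7.47, 7.51 and 6.40 in LPS. PBS replicate 3 lay below LPS replicates 1 and 2, and the difference of −0.80 (−1.59 to 0.00) did not pass (adjusted p = 0.110), while the pairs were close together at −0.73, −0.80 and −0.85 and the block gave adjusted p = 0.0175. Plk1, polo-like kinase 1, differed by −0.43 (adjusted p = 0.118, and 0.0302 with the block).

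The remaining spindle and cytokinesis genes split. Cenpf, a kinetochore protein, fell by 0.52 and Top2a, the topoisomerase that untangles chromosomes, by 0.31 (adjusted p = 0.00952 and 0.00940). Kif20a, a motor of cytokinesis, differed by −0.76 (adjusted p = 0.109, and 0.0259 with the block). The spindle protein gene Nusap1 (−0.52), Birc5, which encodes survivin (−0.38), and Prc1, a bundler of the central spindle (−0.09), did not pass. Nusap1 was lower in all 3 pairs (−0.66, −0.44 and −0.44) and had adjusted p = 0.0509 with the block over 9 arrays. The block over only the 6 LPS and PBS arrays brought Nusap1 (adjusted p = 0.00215), Ccnb2 (0.00161), Foxm1 (0.0319) and Ccne2 (0.0389) past the threshold as lower and Tyms (0.0140) and Tpx2 (0.0411) as higher. Birc5 had values of 7.56, 7.52 and 6.85 in PBS and 6.92, 6.94 and 6.93 in LPS, so that only the pair of replicate 3 was not lower with LPS. Prc1 had the smallest difference of the G2/M genes, with an interval from −0.35 to 0.16.

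Cenpe, the kinetochore motor that aligns chromosomes, rose with LPS. It had log2 values of 7.49, 7.49 and 6.85 in PBS, 8.36, 8.46 and 8.25 in LPS and 7.30, 7.05 and 7.20 in IL-4. The LPS arrays were above all others, and the rise of 1.08 ± 0.16 was 2.12-fold (SE, adjusted p = 9.12e-04). The pairs gave 0.88, 0.97 and 1.40.
Mki67, which encodes the proliferation marker Ki-67, had values of 9.68, 9.76 and 8.61 in PBS and 10.48, 10.53 and 9.20 in LPS. It was higher with LPS by 0.79, 0.77 and 0.59 in the 3 pairs, but replicate 3 was more than 1 log2 unit lower than the other replicates in each condition, and the difference of 0.72 (−0.19 to 1.63) did not pass (adjusted p = 0.197). With the block over 9 arrays it had adjusted p = 0.0726, and over only the 6 LPS and PBS arrays it rose with adjusted p = 5.73e-04. Tpx2, which activates Aurka at the spindle, likewise differed by 0.26 (−0.07 to 0.58), with pairs of 0.17, 0.15 and 0.45. Mki67 thus had the sign opposite to Top2a, Cdk1 and most other members in each pair.

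**Figure D4:**
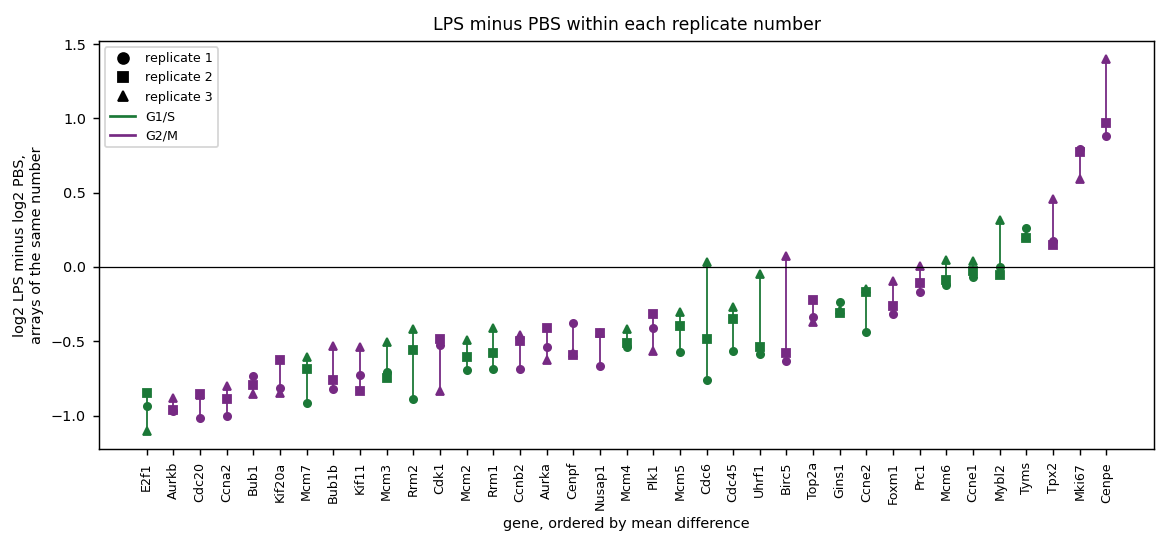
Log2 LPS minus log2 PBS for arrays of the same replicate number, for the 37 genes in order of their mean difference, with G1/S genes in green and G2/M genes in purple. The 3 pairs lie below 0 for 27 genes and above 0 for Tyms, Tpx2, Mki67 and Cenpe, and the pair of replicate 3 differs most from the others for Cdc6, Uhrf1 and Birc5.

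Of 42 other genes for mitotic regulators and kinetochores, 23 fell and 2 rose (22.4% and 15.4% of all rows), with a median of −0.53. Anln, anillin of the cleavage furrow, fell by 1.19 and Kif18a, a kinesin, by 1.11 (adjusted p = 0.00161 and 1.76e-05). Melk, a kinase, rose by 1.81 from 6.73, 6.74 and 6.56 to 8.25, 8.19 and 9.01, and Pttg1, securin, rose by 0.39. Of 13 checkpoint genes and CDC25 phosphatases, 5 fell and 2 rose. Sesn1, a sestrin induced by p53, fell by 3.23, Chek2, a DNA damage kinase, by 2.21, and the stress gene Gadd45b rose by 2.29. Cdc25b (−1.39), Cdc25c (−0.45) and Ccng1 (−0.43) fell too, and Gadd45g rose by 0.53. Of 8 genes for growth factor signals, 3 fell and 3 rose. Myc, a driver of growth, rose by 1.09 and its antagonist Mxd1 by 2.59, while Csf1r, the receptor for M-CSF, fell by 0.76. Mxi1 (−0.81) and Mycn (−0.39) fell and Max, the partner of Myc, rose by 0.67.

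IL-4 left no cell cycle member past the threshold. Of the 37 genes 0 were lower and 0 higher than PBS (limma), where 2.05% and 3.35% of all rows were. At an unadjusted p under 0.05, 0 were lower and 3 higher, Top2a, Mcm6 and Rrm1. The methods' t-test also called 0 members after adjustment, where it called 282 of all rows lower and 434 higher. The median difference was 0.13 for G1/S genes and 0.00 for G2/M genes, beside −0.02 over all rows. The intervals were narrow for some genes and wide for others. Rrm1 differed by 0.13 (0.00 to 0.26), Cdc20 by 0.01 (−0.16 to 0.17) and Cdk1 by 0.16 (−0.01 to 0.33), whereas Mki67 differed by 0.08 (−0.83 to 0.99) and Bub1 by 0.03 (−0.77 to 0.82).

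The PBS arrays themselves lay on both sides of the IL-4 arrays. All IL-4 arrays were above PBS replicate 3 for all 37 genes (34.4% of all rows), and all were below PBS replicates 1 and 2 for 19 (30.2% of all rows), 14 of them of G2/M. Without replicate 3 of LPS and PBS, 11 members were lower with IL-4 and 2 were higher (13.5% and 16.6% of all rows). The 11 were Mki67, Ccnb2, Bub1, Bub1b, Birc5, Kif20a, Tpx2, Cenpe, Mcm3, Cdc45 and E2f1, and the 2 were Top2a and Cdk1. In that setting the sign of Mki67 turned from 0.08 to −0.29 and that of Bub1 from 0.03 to −0.30 (adjusted p = 0.0211 and 0.0360). Leaving out PBS replicate 3 alone left 0 calls. The motile cilia genes had a median of 0.57 above PBS with IL-4, with none of 39 past the threshold when all arrays were kept. Without replicate 3 of LPS and PBS, 35 of the 39 were higher with IL-4 and 0 were lower, with a median of 1.05. With all arrays kept, 7 of 12 fibroblast and meningeal markers were higher. The part of the cilia genes and of these markers in the members' values was not tested.

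Among the other cell cycle genes, a few passed with IL-4. Myc had log2 values of 9.13, 9.13 and 9.64 in PBS and 10.35, 10.38 and 10.40 in IL-4 and rose by 1.08 (adjusted p = 0.00219). Cdk6, a partner of the D cyclins, rose by 0.38 and E2f6 by 0.32. Of the 36 replication genes 4 rose and none fell (3.35% and 2.05% of all rows), among them Dut, which removes dUTP, by 0.50, Orc2 by 0.35, the clamp loader gene Rfc5 by 0.35 and the polymerase gene Pola1 by 0.26. Those of E2f6, Rfc5 and Pola1 were lost with array medians subtracted. Of the 42 mitotic genes none passed in either direction (limma). Ccng2, a cyclin linked to arrest, fell by 0.71, Mxi1 by 0.33 and Sesn1 by 0.29. Myc thus passed in the same direction under both agents, each against the same PBS arrays.

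A direct comparison of LPS with IL-4 does not involve the PBS means. The IL-4 arrays were close together, and 21 members were lower with LPS than with IL-4, 12 of G1/S and 9 of G2/M (25.9% of all rows), while 1, Cenpe, was higher (21.0% of all rows). The medians were −0.54 for G1/S and −0.52 for G2/M genes, beside 0.03 over all rows and 0.18 with array medians subtracted. In that last setting 72.1% of the calls over all rows were higher with LPS, against 44.8% with the deposited values. All LPS arrays were below all IL-4 arrays for 31 genes (31.5% of all rows) and above them for Tpx2 and Cenpe (28.4% of all rows). Without replicate 3 of LPS and PBS, 27 were lower and 4 higher (32.3% and 29.8% of all rows).

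The falls against IL-4 included genes that missed the threshold against PBS. Mcm5 (−0.54, adjusted p = 0.0328), Mcm6 (−0.25, 0.0173), Gins1 (−0.48, 0.00944), Uhrf1 (−0.59, 0.00827) and Cdc6 (−0.44, 0.0474) were lower, all of G1/S. The calls of Mcm5 and Cdc6 were each lost without any 1 of the IL-4 arrays, among others (adjusted p up to 0.0844 and 0.128), and that of Mcm6 without IL-4 replicate 1 (adjusted p = 0.0588). With array medians subtracted the calls of Mcm5, Mcm6, Cdc6, Gins1, Aurka and Bub1b against IL-4 were lost, and after quantile normalization those of Mcm5, Mcm6, Uhrf1, Aurka and Bub1b. Among the firmest, Cdc20 was at 8.07, 8.12 and 8.11 with IL-4 and lower with LPS by 0.92 (adjusted p = 1.97e-05), and Rrm1 was at 10.26, 10.22 and 10.28 and lower by 0.69 (2.58e-05). Ccna2 had the largest difference, −0.98 ± 0.17 (SE), to 50.5% of its IL-4 level. The motile cilia genes were also lower with LPS than with IL-4, with a median of −0.84 (Foxj1 alone past the threshold with all arrays and no block). Without replicate 3 of LPS and PBS, 35 of the 39 cilia genes were lower and 1 was higher, with a median of −1.38. The block gave 14 lower and 0 higher. The part of the cilia genes in the members' falls was not tested.

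Between replicates, most members shifted together. In PBS replicate 3 lay below replicates 1 and 2 for 36 of 37 genes (48.7% of all rows) and in LPS for 31 (47.8%), and in both conditions for 30 (33.0% of all rows). The median shift of replicate 3 from the mean of replicates 1 and 2 was −0.50 in PBS and −0.31 in LPS for G1/S genes and −0.58 and −0.41 for G2/M genes. It was −0.02 and 0.00 in IL-4, where replicate 3 lay below the others for 4 of 37 genes. In IL-4 replicate 1 was instead the highest for 31 genes (44.0% of all rows), by small amounts.
The size of the shift differed widely between members. Mki67 was lower in replicate 3 by 1.11 in PBS and 1.30 in LPS, Ccnb2 by 1.06 and 0.92 and Kif20a by 0.93 and 1.06. Bub1 was lower by 1.09 in LPS and by a like amount in PBS. These 4 genes of G2/M, whose shift exceeded the size of the LPS difference, did not pass against PBS. Cdk1 (0.08 and −0.25), Rrm1 (−0.10 and 0.12), Mcm7 (−0.14 and 0.06) and Cdc20 (−0.19 and −0.11) were among those that shifted least, and they were among the members with the smallest adjusted p. The shift is part of the spread within conditions from which each p-value is computed. This relation between shift and adjusted p is therefore built in and is not a result about LPS.

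**Figure D5:**
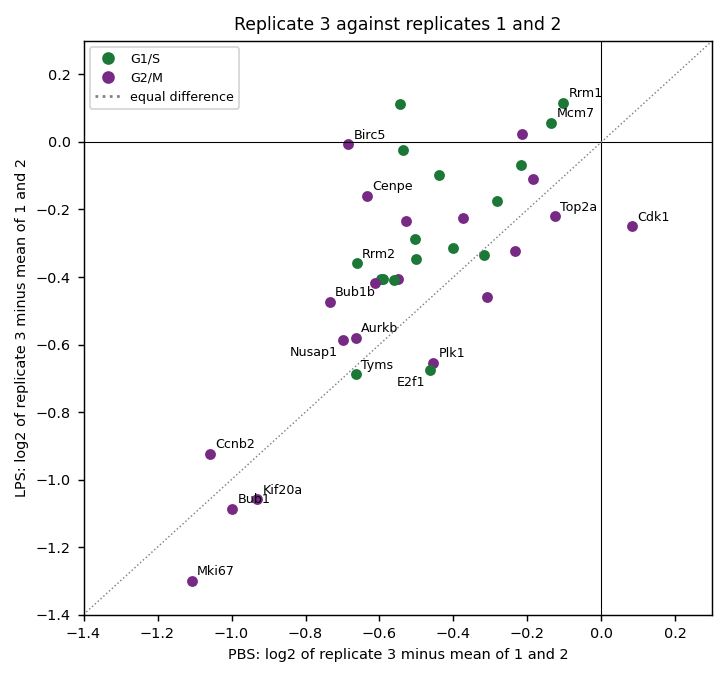
Log2 value of replicate 3 minus the mean of replicates 1 and 2 in LPS (vertical) against the same in PBS (horizontal) for each of the 37 genes, with the dotted line for equal shifts. Mki67, Bub1, Kif20a and Ccnb2 lie lowest on both axes, and Cdk1 is the one gene with a positive shift in PBS.

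Other cell cycle genes shifted on the same arrays. Of the 42 mitotic genes, 37 were lowest in PBS replicate 3 and 31 in LPS replicate 3 (medians −0.34 and −0.25), and of the 36 replication genes 26 and 16 (−0.20 and 0.00). The motile cilia genes shifted by 1.51 upward on both arrays. With the mean of these genes as a covariate, 30 members were lower and 3 higher with LPS than with PBS (30.3% and 20.0% of all rows), and 0 were lower and 17 higher with IL-4 (6.44% and 9.48% of all rows). The part of other cell types in the members' shift was not tested.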

How the data were processed

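The members and gene lists were chosen with earlier results of these data known, and the motile cilia list was written after its values had been seen. The deposited log2 expression values were made by the authors with RMA and the affy package (versions not given in the sources used here), a method that includes background correction and quantile normalization before probes are summarized per gene. They hold 21212 rows, 18786 of them with 1 gene symbol, 6 with several and 2420 with none. Columns were matched to samples by identifier, and array medians over all rows ran from 7.20 to 7.39. Array precision is limited by 3 arrays per condition.

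A linear model with a mean per condition was fitted over all 9 arrays in R 4.3.3 with limma 3.58.1 and its eBayes step (6 residual and 2.38 prior degrees of freedom; statmod 1.5.0 for the robust setting). P-values are two-sided and adjusted by Benjamini and Hochberg over all rows. The procedure was tested on simulated data. Deviations from the condition means were correlated between same-numbered LPS and PBS arrays (r = 0.578, 0.651 and 0.800), but LPS replicate 2 with PBS replicate 1 (0.605) and LPS replicate 1 with PBS replicate 2 (0.542) were nearly as close, so the values set only replicate 3 clearly apart. They were not correlated throughout between IL-4 and PBS arrays (0.339, −0.255 and 0.075), which limits the adjusted p of the block over 9 arrays. The number was taken to pair LPS with PBS because every same-numbered r was above 0.1, and the labels do not state a pairing. Deviations from a condition mean cancel out, so a shift of replicate 3 shared by LPS and PBS makes replicates 1 and 2 correlate as well. This rule therefore cannot decide whether replicates 1 and 2 are paired by number.

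All members are named. Of each other list the 3 called genes with the largest differences and the 2 highest-mean genes that missed were to be named, and further genes are named after their values were seen. Alternatives were the methods' Student's t-test, fits to 6 arrays, trend and robust eBayes, array weights, quantile normalization, array medians subtracted, the 7070 dimmest rows left out, the block, each array left out, replicate 3 of LPS and PBS left out, and a motile cilia covariate. The block over the 6 LPS and PBS arrays was chosen after seeing the data. Figures were drawn with Python 3.11.15 and matplotlib 3.10.9.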

Additional observations from a re-analysis of the deposited data

How the results depend on the processing

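Of the 17 members called between LPS and PBS, 6 kept the call under every setting (Cdk1, Mcm7, Rrm1, Cdc20, Kif11 and Cenpe) and 14 without any 1 array, and of 22 between LPS and IL-4 13 and 17 did. With array weights 28 members were lower and 2 higher with LPS than with PBS, 8 lower and 3 higher with IL-4 than with PBS, and 3 higher with LPS than with IL-4. Over all 21212 rows the same counts were 6144 and 4492, 4159 and 4136, and 6577. With the motile cilia covariate the member counts were 30 and 3, 0 and 17, and 33 were lower with LPS than with IL-4 (6658 of all 21212 rows). In that setting Ccnb2 (0.32), Kif20a (0.30) and Tyms (LPS minus IL-4, −0.30) passed with a sign other than in the report. Without replicate 3 of LPS and PBS the counts were 28 and 4, 11 and 2, and 4 higher with LPS than with IL-4, and Mki67 (−0.29) and Bub1 (−0.30) turned in sign for IL-4. The methods' t-test called 5 of 37 members lower with LPS than with PBS, where it called 3050 of all 21212 rows lower. The replicate block gave 23 lower members with LPS than with PBS and 26 than with IL-4 (5329 and 6073 of all rows). Over the 6 LPS and PBS arrays it gave 27 lower and 4 higher (6119 and 3948 of all rows). With array medians subtracted, and with only the 6 arrays compared, 2 members were higher with LPS than with IL-4 (9567 and 4139 of all rows). Leaving out 1 array gave 13 to 28 lower members (28 without PBS replicate 3) and 1 to 2 higher with LPS than with PBS, and 1 to 2 higher than with IL-4. The causes were not tested. The medians of G1/S and G2/M members moved by less than the spread between replicates throughout (SD 0.23 and 0.24). Replicate 3 of LPS and PBS adds to that spread, so this is not a strict yardstick for leaving it out. Without it the G2/M median went from −0.004 to −0.17 for IL-4 minus PBS and from −0.52 to −0.38 for LPS minus IL-4. For LPS minus PBS it went from −0.52 to −0.53.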
